A study of Mus musculus with 2 samples.

Results

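Coding exon peaks away from promoters are the DNase I hypersensitive sites whose midpoint lay in a protein-coding stretch of an exon and over 1 kb from the transcription start site (TSS) of every annotated protein-coding transcript. By that rule 1258 of 79246 peaks (1.59%) were chosen in animal 1 and 1735 of 77231 (2.25%) in animal 2, a mean of 1496.5 ± 337 (SD, n = 2). DNase-seq had been run on the spleens of 2 male B6CASTF1/J mice aged 2 months, hybrids of C57BL/6J and CAST/EiJ, with 1 library an animal and no treatment named. The labels give each library a biosample and a biological replicate number of its own, used here as animal 1 and animal 2, and the same donor identifier. Both form 1 group, so classes of peaks were compared within each animal and the animal was the replicate. With 2 animals, the smallest two-sided p that the exact sign-flip permutation test can give is 0.5, so no difference below could pass a threshold.

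DNase I cuts DNA where nucleosomes have been displaced, and short stretches inside a cut region that stay uncut are called footprints because a bound protein can shield them. Most such sites lie in promoters, introns and intergenic DNA. Coding exons can be bound as well, and a base there can then belong to both a codon and a binding site. In whole tissue, a site open in fewer cells and a site less open in each cell cannot be told apart. The labelled tissue was checked against the promoters of marker genes: the B cell genes Cd79a, Cd79b, Ms4a1, Pax5 and Cr2 had promoter peaks in both animals, between 3.08 and 13.0 in the authors' peak height, and those of the liver genes Alb and Apoa1 and of the cardiac gene Myh6 had none. Among the genes of other tissues, the pancreatic gene Cela1 had a promoter peak of 3.79 in animal 1 and 5.49 in animal 2, and the neuronal gene Snap25 had 0.337 and 0.333. The T cell genes Lck, Cd3e and Cd8a had promoter peaks, with 5.02 and 6.96, 0.838 and 0.930, and 0.652 and 0.876, and Cd4 had none. The myeloid gene Spi1 had 6.16 and 6.63 and the red pulp macrophage gene Spic 0.566 and 0.407. In neither animal was there a promoter peak at the erythroid genes Hba-a1 and Gata1 or the macrophage gene Adgre1.

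The sequences of 8 members are given here because they are among the highest or the richest in footprints, and because they show how a protein-coding stretch can be lined with footprints. Each is read on the strand of its gene from the GRCm38.p6 assembly, and capitals mark bases that lay in a footprint in both animals. The assembly is that of C57BL/6J, so alleles of the CAST/EiJ parent are not shown.
Angptl6, chr9:20878181-20878480, minus strand: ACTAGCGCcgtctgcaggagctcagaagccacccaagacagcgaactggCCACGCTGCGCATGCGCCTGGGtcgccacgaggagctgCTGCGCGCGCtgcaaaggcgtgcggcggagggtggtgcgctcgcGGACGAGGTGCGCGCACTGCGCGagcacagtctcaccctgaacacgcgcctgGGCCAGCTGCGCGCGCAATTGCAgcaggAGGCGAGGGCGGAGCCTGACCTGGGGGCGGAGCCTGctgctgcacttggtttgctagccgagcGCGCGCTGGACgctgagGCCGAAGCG
Inpp5b, chr4:124751421-124751640, plus strand: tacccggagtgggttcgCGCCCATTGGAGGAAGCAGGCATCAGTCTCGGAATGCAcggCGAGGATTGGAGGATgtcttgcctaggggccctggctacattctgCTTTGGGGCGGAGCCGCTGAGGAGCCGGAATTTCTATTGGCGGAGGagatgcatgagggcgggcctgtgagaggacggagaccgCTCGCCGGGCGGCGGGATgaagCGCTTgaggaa
Zfp771, chr7:127254061-127254280, plus strand: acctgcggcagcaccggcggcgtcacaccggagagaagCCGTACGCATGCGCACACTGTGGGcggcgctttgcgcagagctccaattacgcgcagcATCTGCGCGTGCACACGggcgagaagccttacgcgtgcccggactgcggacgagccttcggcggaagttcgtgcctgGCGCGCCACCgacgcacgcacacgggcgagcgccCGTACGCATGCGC
Rasip1, chr7:45628861-45629020, plus strand: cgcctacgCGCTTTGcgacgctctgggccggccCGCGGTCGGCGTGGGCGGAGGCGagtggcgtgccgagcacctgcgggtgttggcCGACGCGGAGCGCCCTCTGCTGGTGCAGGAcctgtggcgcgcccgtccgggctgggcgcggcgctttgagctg
Ltb, chr17:35195741-35195920, plus strand: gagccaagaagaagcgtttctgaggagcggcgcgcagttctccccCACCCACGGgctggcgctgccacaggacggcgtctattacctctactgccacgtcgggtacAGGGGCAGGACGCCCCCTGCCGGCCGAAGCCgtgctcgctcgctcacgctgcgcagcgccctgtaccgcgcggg
Ptprn, chr1:75251701-75251900, minus strand: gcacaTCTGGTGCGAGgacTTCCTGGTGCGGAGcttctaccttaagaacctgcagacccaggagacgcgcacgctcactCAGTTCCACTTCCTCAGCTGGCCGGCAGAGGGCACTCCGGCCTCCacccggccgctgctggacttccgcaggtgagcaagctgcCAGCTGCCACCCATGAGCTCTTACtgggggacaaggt
Klf1, chr8:84903121-84903300, plus strand: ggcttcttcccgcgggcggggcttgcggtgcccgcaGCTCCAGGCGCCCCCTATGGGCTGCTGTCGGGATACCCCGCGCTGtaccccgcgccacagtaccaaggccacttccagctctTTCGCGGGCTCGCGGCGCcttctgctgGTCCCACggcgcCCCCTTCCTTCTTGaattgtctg
Klf4, chr4:55530281-55530540, minus strand: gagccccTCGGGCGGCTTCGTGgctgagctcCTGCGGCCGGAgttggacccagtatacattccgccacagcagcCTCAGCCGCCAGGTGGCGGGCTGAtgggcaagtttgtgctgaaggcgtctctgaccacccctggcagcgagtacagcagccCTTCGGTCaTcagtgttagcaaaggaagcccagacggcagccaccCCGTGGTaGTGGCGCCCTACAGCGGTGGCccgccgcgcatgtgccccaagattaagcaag
The stretch of Angptl6, which encodes a secreted angiopoietin-like protein, had 142 of 300 bases in a footprint in both animals, in 8 separate runs. That of Inpp5b had 122 of 220 bases in 5 runs, and that of Klf4, a zinc finger transcription factor gene, had 87 of 260 in 7 runs. In Ltb only 40 of 180 bases did, in 2 runs. Sequences that were read but are not printed ran from 22 of 220 bases in Cited2 to 100 of 180 in Ccdc194. All bases shown are coding except in Ptprn, where 150 of 200 are.

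Coding DNA away from promoters was denser in peaks than introns were, and far less dense than promoters. It makes up 25.6 Mb, or 0.968% of the genome, and held 49.1 peaks per Mb in animal 1 and 67.7 in animal 2. Introns held 26.7 and 23.8 peaks per Mb, intergenic DNA 16.9 and 16.3, and the 1 kb around promoters 263 and 274. Noncoding parts of exons, also away from promoters, were denser than introns too, with 39.0 and 36.5. Between the animals, coding exon peaks were fewer in animal 1 by a ratio of 0.725, animal 1 over animal 2. Intron peaks stood at 1.12, peaks in noncoding exon parts at 1.07, promoter peaks at 0.960 and intergenic peaks at 1.03.

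The members were low peaks. Their median height was 0.666 in animal 1 and 0.645 in animal 2, against 0.738 and 0.883 for intron peaks and 1.73 and 1.97 for promoter peaks. The height is the authors' signal at a peak, in a unit that the labels do not state. Within a library the heights fell on multiples of a smallest step, to within 0.00743 of a step. Counted in those steps, the median member stood at 93 in animal 1 and 95 in animal 2, and the lowest at 17 and 18. On the log2 scale the median member was lower than the median intron peak by a difference of -0.15 in animal 1 and -0.45 in animal 2 (mean -0.30 ± 0.22, SD, n = 2; exact sign-flip permutation test, p = 0.5). Against promoter peaks the difference was -1.37 and -1.61 (mean -1.49 ± 0.17, SD, n = 2; exact sign-flip permutation test, p = 0.5). Among peaks found in both animals the difference from introns was -0.18 in animal 1 and 0.01 in animal 2 (mean -0.09), with the shorter of the deposited lists 0 and -0.18 (mean -0.09), and among the higher 50% of the peaks 0.05 and -0.02. Split by height, coding exon peaks made up 2.11% of the lowest 10% of all peaks in animal 1 and 3.81% in animal 2, against 0.290% and 0.324% of the highest 10%.

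**Figure D1:**
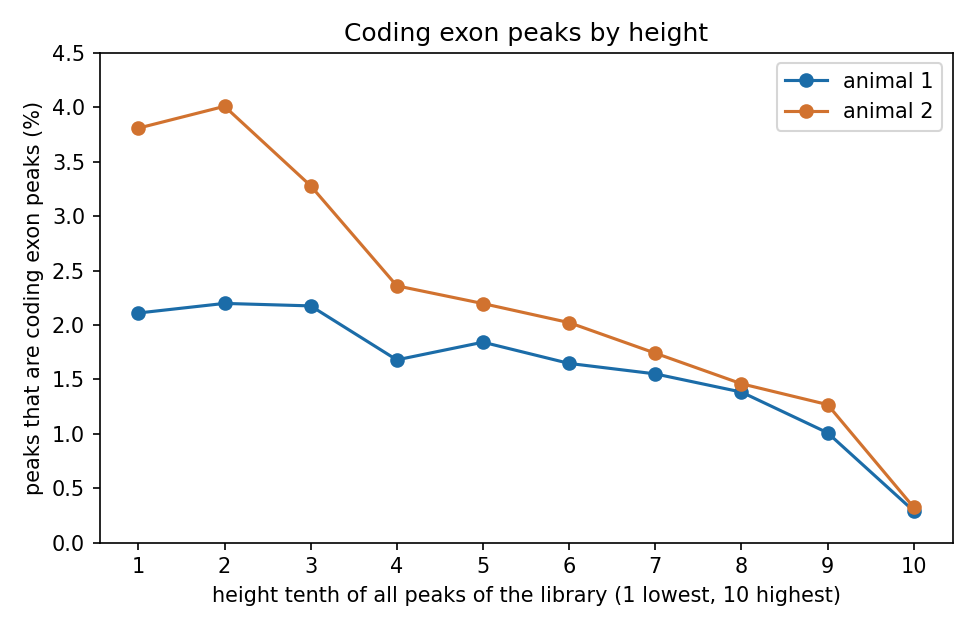
Share of all peaks that were coding exon peaks (vertical axis, %) in each of 10 equal groups of the library's peaks by height (horizontal axis, lowest on the left), with a line for each animal. The share fell toward the high end in both, to 0.290% and 0.324% in the highest group, and animal 2 lay above animal 1 mainly among the low peaks.

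A few members were nevertheless as high as strong promoter peaks. Of the 862 members matched 1 to 1 with a member of the other animal, 40 had a mean height over 5 and 3 a mean over 10. The highest was in the first coding exon of Angptl6, at 18.3 in animal 1 and 19.8 in animal 2, where 7 and 8 footprints lay. Inpp5b, which encodes an inositol polyphosphate 5-phosphatase, followed with 14.4 and 17.2 in its coding exon 6 of 23. Zfp771, a zinc finger protein gene, stood at 9.32 and 12.1 in the last of its 2 coding exons. All 3 were higher in animal 2, as were most matched peaks. Their log2 ratios of animal 1 over animal 2 were -0.11, -0.26 and -0.37, against a median of -0.23 over all matched peaks.

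Among the 12 highest were genes with and without a marked role in the spleen. Klf1 encodes the transcription factor that directs red cell maturation, and its coding exon 2 held a peak of 6.05 in animal 1 and 8.32 in animal 2, while its promoter had none in animal 1 and 0.665 in animal 2. Ltb encodes lymphotoxin beta, the cytokine that organises lymphoid tissue, and its last coding exon held 6.38 and 8.34, beside a promoter peak of 8.65 and 8.49. Cited2, whose single coding exon encodes a partner of the coactivators CBP and p300, stood at 6.37 and 7.95. Sft2d3, outside the 12 highest but the next among genes with a single coding exon, had 6.13 and 7.81. Rasip1, a gene of endothelial cells, had 6.04 and 9.19, and the coagulation factor gene F12 had 6.32 and 10.4. Rasip1 and F12 had no promoter peak in either animal. The same held for Ccdc194, at 7.99 and 11.8, and for the galectin gene Lgals7, at 8.52 and 10.4. Rimbp3, known for its role in sperm, had 6.29 and 10.2, and Ptprn, a gene of neuroendocrine secretory vesicles, had 7.27 and 7.16.

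**Figure D2:**
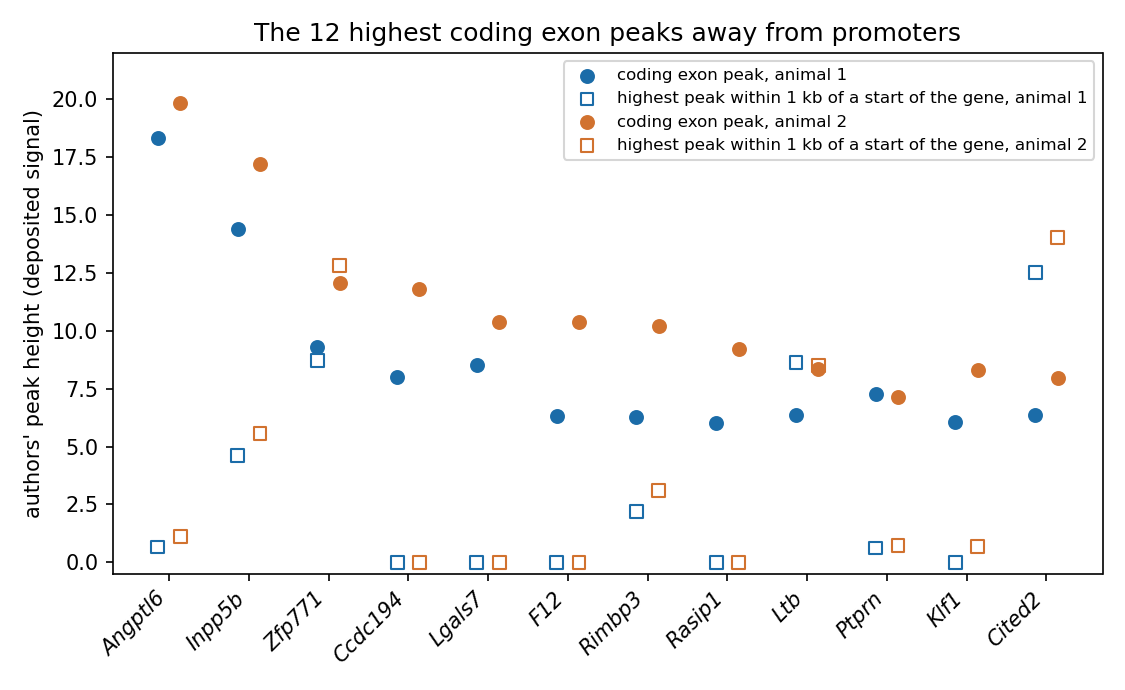
Authors' peak height (vertical axis) of the 12 highest coding exon peaks (filled circles) and of the highest peak within 1 kb of a start of the same gene (open squares, at 0 where there was none), in animal 1 and animal 2. Angptl6 stood at 18.3 and 19.8, and Ccdc194, Lgals7, F12 and Rasip1 had no promoter peak in either animal.

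The annotation used decides whether some of these sites count as away from promoters. The GENCODE M21 starts of protein-coding genes were used by the rule, and RefSeq lists others. The peak of Angptl6 lay 269 bp from a RefSeq start, in animal 1 that of Inpp5b 177 bp, that of Ptprn 521 bp and that of Ltb 879 bp, so 4 of the 12 highest lay within 1 kb of such a start. In first coding exons, Kansl1, a subunit gene of a histone acetyltransferase complex, had 6.38 in animal 1 and 7.36 in animal 2 at 99 bp from a RefSeq start, and Psmc2, a proteasome ATPase gene, had 5.79 and 5.80 at 6 and 16 bp. Over all members the share within 1 kb of a RefSeq start was 13.0% in animal 1 and 11.4% in animal 2, and in the highest 10% of the members it was 22.2% and 21.3%. For intron peaks it was 7.20% and 7.59%.

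Coding exon peaks lay close to the 1 kb limit on both sides of it. In animal 1 Bnip1 was the nearest inside the rule, at 1004 bp and a height of 0.731, followed by Six4 and Pum2 at 1005 bp. The nearest coding exon peaks left out were those of Znhit2 at 999 bp, with 2.53, and of Foxo1 and Nbeal1 at 995 bp. In animal 2 Prr14, Sfpq and Etv2 lay inside at 1003, 1006 and 1011 bp with heights of 0.584, 0.998 and 1.32, and Arid1a lay outside at 1000 bp with 1.02, as did Lclat1 and H2-Q2 at 998 bp with 0.597 and 0.475. In all, 1868 coding exon peaks in animal 1 and 2396 in animal 2 lay within 1 kb of a TSS and were not members. The median member lay 4470 bp from a TSS in animal 1 and 4384 bp in animal 2, with 28.5% and 28.2% between 1 and 2 kb and 364 and 521 members beyond 10 kb.

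By position in the gene, members were more frequent per base in the outer coding exons than in internal ones. Internal coding exons held 680 of the members in animal 1 (54.1%) and 919 in animal 2 (53.0%), and make up 72.2% of the coding bases away from promoters. Last coding exons held 27.0% and 27.6% of the members on 18.3% of the bases. First coding exons held 9.14% and 8.65% on 4.13%, and genes with a single coding exon 9.78% and 10.8% on 5.37%. Per Mb that was 37.8 and 51.1 members in internal exons, 74.4 and 105 in last, 112 and 146 in first and 92.0 and 141 in single exons. Members in first and single exons lay near a protein-coding TSS all the same, of their own gene or of another. The median distance was 1666 and 1657 bp in animal 1 and 1477 and 1596 bp in animal 2. For internal exons it was 6654 bp in animal 1 and 6449 bp in animal 2. Median heights ran from 0.530 in single to 0.734 in last exons in animal 1 and from 0.591 to 0.676 in animal 2.

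Members were denser in longer exons. Exons of up to 100 coding bp held 36.6 members per Mb in animal 1 and 38.1 in animal 2, and those of 500 to 1000 bp held 73.0 and 109. In exons over 1000 bp the density was 61.9 and 96.0. The G+C content of the members rose with exon length too, to a median of 63.3% in both animals for exons of 500 to 1000 bp, against 51.0% and 54.0% for those up to 100 bp. The part of base composition in this relation was not tested.

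**Figure D3:**
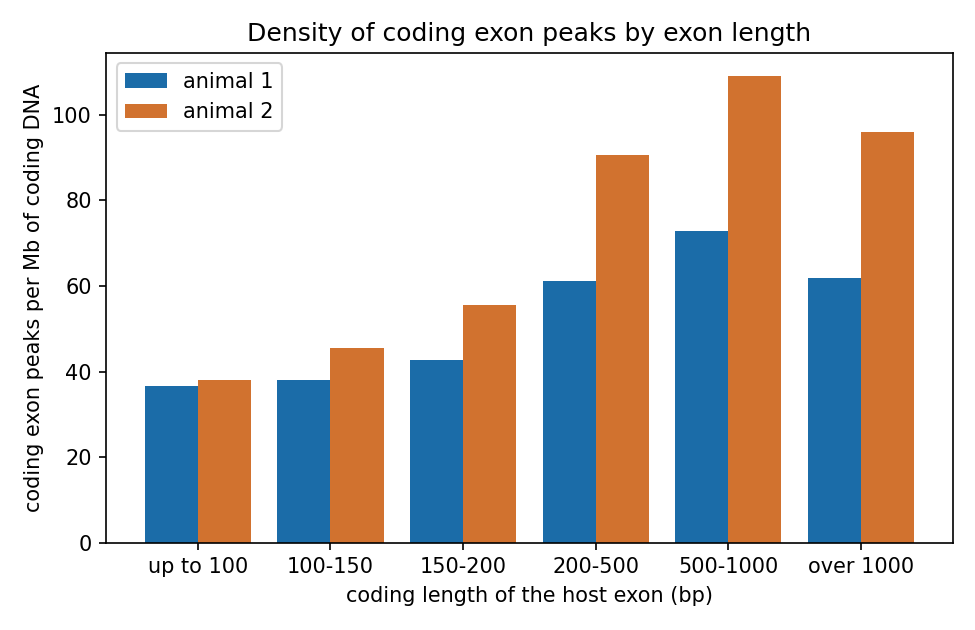
Coding exon peaks per Mb of coding DNA over 1 kb from a promoter (vertical axis), by the coding length of the host exon (horizontal axis, bp), in animal 1 and animal 2. Density rose from 36.6 and 38.1 in the shortest exons to 73.0 and 109 in those of 500 to 1000 bp.

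Many members were not confined to coding bases. In animal 1, 570 of 1258 (45.3%) lay wholly in coding sequence, and in animal 2, 903 of 1735 (52.0%). The peak passed the 5' boundary alone of its coding interval in 195 and 249 members, the 3' boundary alone in 262 and 349, and both in 234 and 239. The midpoint fell in coding exons of 2 overlapping genes in 9 and 5 members, which were given to the gene with the better-ranked transcript.

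Members were richer in G+C and in CpG than intron peaks. In the 150 bp around the midpoint the median G+C content was 58.7% in animal 1 and 60.0% in animal 2, against 51.3% and 52.7% in intron peaks, a difference of 7.33 percentage points in each (exact sign-flip permutation test over 2 animals, p = 0.5). The underlying DNA differs too, with 50.8% G+C in coding DNA away from promoters and 42.2% in introns. CpG dinucleotides averaged 4.73 and 5.08 per 100 bp in members and 1.73 and 1.90 in intron peaks, a mean difference of 3.09 ± 0.13 (SD, n = 2; exact sign-flip permutation test, p = 0.5). Promoter peaks had more, 6.95 and 7.41.

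Among 20 motifs looked for on both strands of these 150 bp, the members held some more often than intron peaks and others less often. The E-box CAGCTG was present in 20.3% of the members in animal 1 and 19.8% in animal 2, against 13.6% and 13.9% of intron peaks and 12.1% and 12.4% of all peaks. The GC box GGGCGG, bound by SP and KLF factors, was in 11.6% and 13.5% of members, 7.33% and 8.67% of intron peaks and 40.8% and 43.4% of promoter peaks. Another KLF word, CCACACCC, went the other way, with 1.03% and 1.21% of members. It was in 2.68% and 2.76% of intron peaks and 2.37% and 2.43% of all peaks. The ETS word CCGGAAG was in 4.13% and 4.73% of members and 2.09% and 1.99% of intron peaks. Words of blood cell factors differed in direction. The EBF word CCCNNGGG was in 8.74% and 8.70% of members against 7.16% and 7.40% of intron peaks, and the PU.1 word GAGGAAG in 164 of 1258 and 191 of 1735 members against 14.8% and 13.3%. The RUNX word TGTGGTT was in 4.13% and 2.77% of members against 7.36% and 6.85% of intron peaks. The AP-1 word TGANTCA was in 2.31% and 1.79% against 5.32% and 4.75%, and the GATA word AGATAAG was in 4 and 8 members (0.318% and 0.461%) against 1.34% and 1.17%. Among all peaks the GC box was in 18.8% and 21.4%, the ETS word in 4.43% and 4.64%, the EBF word in 8.65% and 9.34%, the PU.1 word in 12.3% and 10.9%, the RUNX word in 5.54% and 4.81%, the AP-1 word in 4.49% and 3.997% and the GATA word in 1.13% and 0.931%. A match describes letters, not binding.

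The CTCF consensus, the site of the factor that anchors chromatin loops, was in 60 members of animal 1 (4.77%) and 62 of animal 2 (3.57%), against 4.94% and 5.50% of intron peaks and 4.25% and 4.38% of all peaks. Peaks in noncoding exon parts held it in 8.68% and 9.28%. The difference of members from introns was -0.17 and -1.92 percentage points (exact sign-flip permutation test, p = 0.5). Among members with the consensus the median height was 1.36 in animal 1 and 2.06 in animal 2, and 96.7% and 96.8% overlapped a peak of the other animal, against a median of 1.16 and 1.67 and shares of 93.5% and 94.4% in intron peaks. The consensus lay wholly in coding bases in 52 members of each animal, and it overlapped a footprint in 52 and 61 (86.7% and 98.4%), against 91.7% and 97.8% in intron peaks. The highest were those of Rasip1 and Ptprn, printed above, in which the match lies wholly in shared footprint bases. Pgls, a pentose phosphate pathway gene, had 5.29 in animal 1 and 7.73 in animal 2, the zinc finger gene Zfp219 had 4.54 and 6.52, and Vwa1, which encodes an extracellular matrix protein, had 3.54 and 5.61. Those of Pgls and Vwa1 lay 255 and 442 bp from a RefSeq start. The sequence of Angptl6 holds 1 match to the NRF1 consensus and 2 GC boxes, all wholly in shared footprint bases (the NRF1 consensus is in 0.404% and 0.434% of all peaks), and that of Inpp5b holds 3 GC boxes, 2 of them so.

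Footprints were found in 957 members of animal 1 (76.1%) and 1325 of animal 2 (76.4%), fewer than in intron peaks, with 82.9% and 86.6%. The mean difference was -8.52 ± 2.39 percentage points (SD, n = 2; exact sign-flip permutation test, p = 0.5). The share rose with height in both classes. In the lowest 25% of all peaks 53.1% and 59.0% of members had a footprint, against 57.4% and 63.4% of intron peaks. In the next 25% it was 82.5% in both animals, against 87.1% and 90.3%, and in the 25% above those 88.7% and 92.6%, against 95.3% and 97.4%. In the highest 25% it was 99.4% in both animals, against 99.3% and 99.6%. Members with a footprint had 2.37 and 2.40 on average. Of the 2267 footprints in members of animal 1, 1854 (81.8%) had their midpoint in coding bases, and of 3144 in animal 2, 2671 (85.0%). The median footprint was 9 bp wide in each.

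By the mean of both animals, the matched members with most footprints were Angptl6 and those of 4 other genes. The most in any member was 10 in animal 1 and 13 in animal 2. Zfp608, a zinc finger gene, had 10 footprints in animal 1 and 8 in animal 2 in a broad peak of only 1.22 and 1.21. Fbxl22, which encodes an F-box protein, had 8 and 9 in a peak of 5.12 and 6.16. Gdf15, a stress-induced cytokine of the TGF-beta family, had 8 and 6 in a peak of 6.85 and 7.27, with no promoter peak in either animal. Klf4 had 9 and 5 in a peak of 2.54 and 4.12.

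Genes that hosted a coding exon peak usually had an open promoter. Of 1076 host genes in animal 1, 837 (77.8%) had a promoter peak, and of 1398 in animal 2, 1120 (80.1%), against 61.4% and 62.6% of all 21938 protein-coding genes. The difference was 16.4 and 17.5 percentage points (mean 17.0 ± 0.82, SD, n = 2; exact sign-flip permutation test, p = 0.5). Genes with an intron peak had a promoter peak in 81.0% and 82.3%. A promoter peak here was any peak that overlapped the 1 kb around a start of the gene. A member just past 1 kb could therefore count as the promoter peak of its own host. In Tbr1, chosen after its values were seen, the highest member and the promoter peak had the same height. It was 0.630 in animal 1 and 0.767 in animal 2. The number of such hosts was not counted, so the difference from all genes is partly set by the rule. Of the 862 members matched in both animals, 267 (31.0%) were higher than the promoter of their gene in both, and 145 (16.8%) had a host with no promoter peak in either.

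Genes typical of the spleen's cell types were among the hosts, a few from each list. Hosts were 1076 genes in animal 1, or 4.90% of the protein-coding genes, and 1398 in animal 2, or 6.37%, with 803 in both. By list the share was 10% and 12.5% for B cell genes, and 2.63% in each animal for T cell and NK cell genes. It was 8.11% and 10.8% for macrophage, dendritic cell and granulocyte genes, and 7.41% and 11.1% for erythroid and megakaryocyte genes. For endothelial and stromal genes it was 9.09% and 13.6%. Each of these shares rests on few genes. Of 40 B cell genes, 4 were hosts in animal 1 and 5 in animal 2. Bank1, a B cell scaffold protein gene, was a host in both, with a low peak of 0.387 and 0.462. The kinase gene Pik3cd, chosen like Lef1 and Nfatc1 after its values were seen, reached 1.47 and 1.96. Those are its highest members in each animal, which were not matched to each other. Of 38 T cell and NK cell genes 1 was a host in each animal, Lef1 in animal 1 at 0.974 and Nfatc1 in animal 2 at 0.652. Of 37 macrophage, dendritic cell and granulocyte genes 3 and 4 were. The receptor tyrosine kinase gene Flt3 had 3.09 in animal 1 and 2.43 in animal 2, above its promoter at 1.23 and 1.74. Spi1, which encodes the myeloid and B cell factor PU.1, had 1.16 and 1.68 in its last coding exon, and Mrc1, the mannose receptor gene, had 0.630 and 0.557 with no promoter peak. Of 27 erythroid and megakaryocyte genes 2 and 3 were hosts, with Klf1 the highest. Of 22 endothelial and stromal genes 2 and 3 were, among them the VEGF receptor gene Flt1, at 0.974 and 1.16, and Stab2, a scavenger receptor gene of sinusoid endothelium, at 0.931 and 1.06.

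Lists other than those of cell types gave further hosts. Of 23 genes of giant and cytoskeletal proteins, 8 were hosts in animal 1 (34.8%) and 10 in animal 2 (43.5%). The highest were Dst, which encodes the linker protein dystonin, at 2.06 and 3.50, the utrophin gene Utrn at 1.30 and 2.08, and the nesprin gene Syne1 at 0.874 and 1.45. Per Mb of their coding DNA, these genes held 25.6 members in animal 1 and 96.7 in animal 2, against 50.5 and 69.6 over all protein-coding genes, and 21 of the 34 members in animal 2 were in Plec. Of 37 chromatin regulator genes, 4 and 9 were hosts. The remodeller gene Chd7 had 3.12 and 3.08, its relative Chd1 1.38 and 1.00, and the histone methyltransferase gene Kmt2a 1.90 and 2.53. Among gene families taken by symbol, 12 of 94 potassium channel genes were hosts in animal 1 and 14 in animal 2, with 114 and 140 members per Mb. Olfactory receptor genes held 27.5 and 18.3 members per Mb, on only 0.109 Mb of coding DNA that the rule leaves them.

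Most hosts held 1 member, 935 in animal 1 and 1171 in animal 2, and a few held many. Cmya5, a gene of striated muscle, had 7 members in animal 1 and 6 in animal 2 in a single exon of 9310 bp, the highest at 4.66 and 3.65, 82 and 92 bp from a RefSeq start. Irf2bpl, whose coding sequence is 1 exon of 2325 bp, had 5 in each animal, with medians of 1.06 and 1.05. Prr36 had 4 and 3 in its exon of 2196 bp, the highest at 1.74 and 1.72. Mid1, a ubiquitin ligase gene that spans the boundary of the pseudoautosomal region in C57BL/6 mice, had 4 and 5, in coding exons 6 to 9 of 9 and in animal 2 also in exon 4, the highest at 1.85 and 3.01. In Cmya5, Irf2bpl and Prr36 the peaks of both animals fell in the same exon. Peaks of 1 list can overlap each other, and 29 members in animal 1 and 51 in animal 2 overlapped another member.

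Between the animals, the low members differed most. A counterpart in the other library, a peak sharing at least 1 bp, was present for 936 of 1258 members of animal 1 (74.4%) and for 963 of 1735 of animal 2 (55.5%). Intron peaks were found in the other animal in 71.7% and 80.8%. The difference was therefore 2.67 percentage points in animal 1 and -25.3 in animal 2, opposite in sign (mean -11.3 ± 19.8, SD, n = 2; exact sign-flip permutation test, p = 1). In the highest 10% of the members 100% and 99.4% were found in the other animal, and in the lowest 10% it was 21.7% and 2.33%. Most of the excess in animal 2 lay in low peaks: among the higher 50% of all peaks there were 462 members in animal 1 and 522 in animal 2, and among the lower 50% there were 796 and 1213.

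The 322 members of animal 1 and the 772 of animal 2 that had no counterpart were lower than the others and lay more often wholly in coding bases. Their median heights were 0.380 and 0.414, against 0.877 and 1.09 for members with a counterpart. They were also narrower, with a median width of 114 and 124 bp against 200 and 180 bp, and the part of width in the share that lay wholly in coding bases was not tested. In animal 2 they lay in longer exons, with a median of 356 bp against 242 bp in animal 1, and 67.6% of them lay wholly in coding bases, against 61.5% in animal 1. With a counterpart the share was 39.7% and 39.6%, and the median exon 243.5 bp and 244 bp. Their best false discovery rate in the authors' cut-rate intervals was under 0.001 in 15.2% and 21.2%, against 74.1% and 74.6% with a counterpart.

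Base composition moved with this difference in coding exon, intron, promoter and intergenic peaks. Where the 150 bp around the midpoint held under 45% G+C, animal 1 had 1.25 times as many coding exon peaks as animal 2, 1.70 times as many intron peaks and 2.00 times as many promoter peaks. Between 55% and 65% the ratio was 0.635 for coding exon peaks, with 608 in animal 1 and 958 in animal 2, 0.894 for intron peaks and 0.920 for promoter peaks. At 65% and over it was 0.633, 0.745 and 0.862. Coding exon peaks had the lowest ratio of these 4 classes in each range. The part of base composition in the count of members was not tested.

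**Figure D4:**
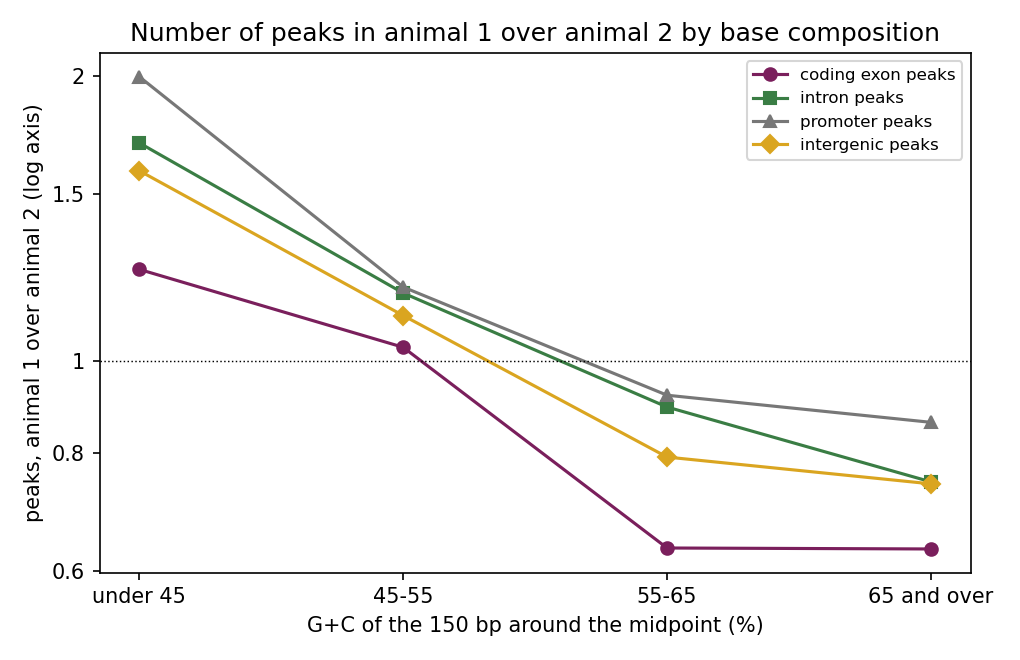
Number of peaks in animal 1 over animal 2 (vertical axis, log scale) by the G+C content of the 150 bp around the midpoint (horizontal axis, %), for coding exon, intron, promoter and intergenic peaks. The ratio fell with G+C in each class, and coding exon peaks were lowest in each range, with 0.635 and 0.633 in the 2 highest.

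The deposited cut-rate intervals, stretches with more cuts than their background by the authors' false discovery rate, showed the same direction. The intervals come from the same libraries as the peaks, and each member overlapped such an interval, so this is not an independent check. Intervals under a false discovery rate of 0.05 covered 1.36% of the coding bases away from promoters in animal 1 and 1.62% in animal 2, while they covered 0.696% and 0.558% of intron bases and 13.5% and 12.5% of promoter bases. In covered bases the ratio of animal 1 over animal 2 was 0.840 in coding DNA, 1.25 in introns and 1.14 over all. By exon, it was 1.52 in coding exons under 45% G+C and 0.730 in those of 55% to 65%.

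Part of the excess in animal 2 lay in a small number of genes. In animal 2 there were 16 genes with at least 3 members and none in animal 1, with 94 members or 5.42% of all, and in animal 1 there were 2 such genes, Cd93 and Egr2, with 7 members. Plec, which encodes the cytoskeletal linker plectin, had 0 members in animal 1 and 21 in animal 2, 7 in its coding exon 31 and 14 in exon 32, its 2 longest. Their heights ran from 0.258 to 0.509, none was found in animal 1, and all 7 in exon 31 and 12 of the 14 in exon 32 held a footprint. Helz2, a helicase gene, had 0 and 10, Setd1b, a histone methyltransferase gene, 0 and 7, and Notch2, the receptor gene needed for marginal zone B cells, 0 and 5. These 4 genes had promoter peaks in both animals, 9.43 and 11.8 in Plec, 3.02 and 3.14 in Helz2, 8.35 and 8.27 in Setd1b and 8.82 and 9.66 in Notch2. Setd1b and Notch2 were chosen after their values were seen.

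In these and other genes, the cut-rate intervals covered part or most of the coding bases in 1 animal and few or none in the other. Peaks and intervals come from the same libraries, so they are not independent. Of the coding bases of Plec away from promoters, 0.818% lay in such intervals in animal 1 and 44.5% in animal 2. In Setd1b it was 0 of 5128 bases and 39.0%, and in Helz2 0.368% and 31.2%. The introns of these genes were partly covered in both animals. In animal 1 and animal 2 it was 9.09% and 20.6% in Plec, 12.1% and 18.3% in Setd1b and 16.3% and 44.8% in Helz2. Of 8842 genes with at least 1000 such coding bases, 10 had over 20 percentage points more in animal 1 and 43 had over 20 more in animal 2, while 6885 had none covered in either. The 43 genes were chosen by this difference. Of their introns, 2.38% were covered in animal 1 and 5.16% in animal 2, against 0.611% and 0.492% of the introns of all genes. Intervals can run past exon edges, so this intron coverage is not independent of the choice. Single genes varied, with 1.63% and 64.8% of the introns covered in Tap2 and 1.62% and 0.882% in Zfp746. Both genes were chosen after their values were seen.

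The largest differences in both directions are given here and were chosen after their values were seen. Tap2, the gene of a peptide transporter for MHC class I, had 0% of its coding bases covered in animal 1 and 85.1% in animal 2, with 1.63% and 64.8% of its introns, so the covered bases ran through the introns as well. Pde4c, a phosphodiesterase gene, had 0% and 84.6%, and Elmsan1 had 0% and 62.1%. The Wnt receptor gene Fzd8 had 0% and 53.6%, and the transcription factor gene Sp9 had 0.419% and 52.4%. In the other direction Gpr183, the oxysterol receptor gene that positions B cells in follicles, had 97.5% in animal 1 and 0% in animal 2. Cxcr5, the gene of the receptor for the follicular chemokine CXCL13, had 71.7% and 0%, and Cd93 had 69.2% and 6.45%. Slfn2, a gene that maintains T cell quiescence, had 30.7% and 0%, with 95.1% and 25.1% of its introns, and the transcription factor gene Egr2 had 26.7% and 0%. With 1 library an animal, a difference in a single gene has no replicate check.

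**Figure D5:**
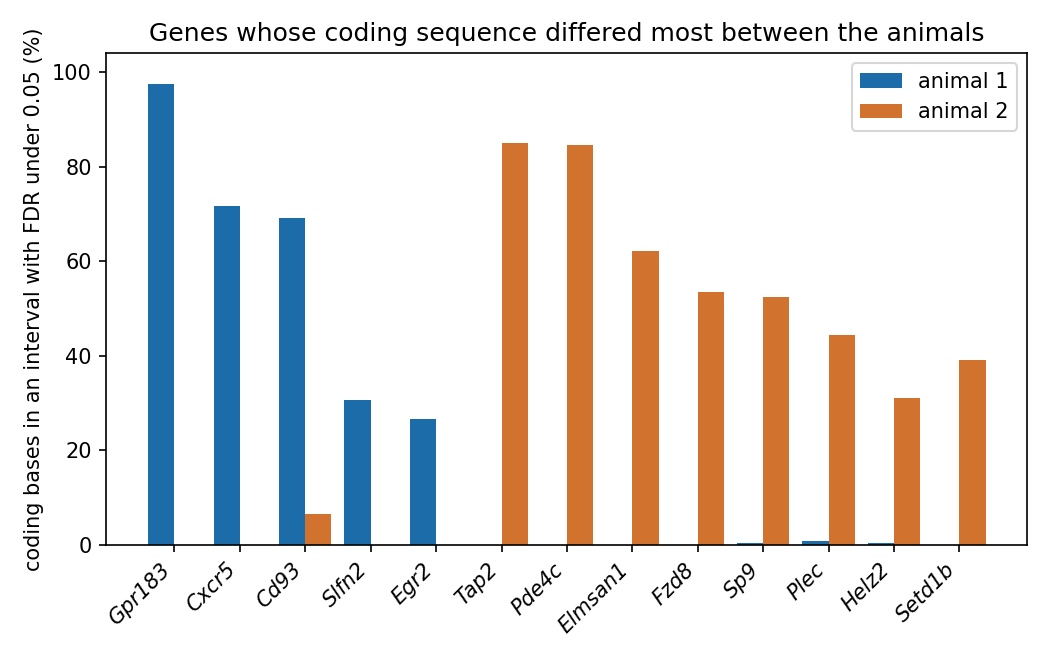
Coding bases over 1 kb from a promoter that lay in an interval with a false discovery rate under 0.05 (vertical axis, %), in animal 1 and animal 2, for the 5 genes with the largest difference toward animal 1, the 5 with the largest toward animal 2, and Helz2, Plec and Setd1b. Gpr183 stood at 97.5% and 0%, Tap2 at 0% and 85.1%.

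Where a member was present in both animals, its heights were close. Across the 862 matched members, which share their libraries, log2 heights correlated with r = 0.936 (Pearson) and rho = 0.920 (Spearman), given as a description. Most were lower in animal 1: the log2 ratio of animal 1 over animal 2 had a median of -0.36 (SD 0.40 across peaks), against -0.16 for intron, -0.26 for promoter and -0.23 for all matched peaks. Relative to the median of all, 7 members were over 2-fold higher in animal 1, or 0.812%, against 1.51% of all matched peaks. Over 2-fold higher in animal 2 were 8, or 0.928%, against 0.437% of all. Single ratios were ranked among members over the median member height in at least 1 animal. A member could pass through only the animal where it was high, which favours large ratios. The largest toward animal 1 was that of Msr1, a macrophage scavenger receptor gene, with a log2 ratio of 1.56. It had 1.10 in animal 1 and 0.373 in animal 2. Gm11168 had 7.31 and 2.75, while its promoter peak went the other way, at 0.838 in animal 1 and 5.02 in animal 2. Dennd1b had 1.06 and 0.530, and Hspa14, an HSP70 family gene, 1.04 and 0.550. Toward animal 2 the largest was the keratin gene Krt88, at 0.537 in animal 1 and 1.41 in animal 2, a log2 ratio of -1.39. The claudin gene Cldn12 had 0.430 and 1.12, Igdcc4 0.566 and 1.45, and the gasdermin gene Gsdme 0.487 and 1.20.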

How the data were processed

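DNase-seq of spleen was measured in 1 library of each of 2 animals. Per the file listings, the authors derived each peak list from 1 library aligned to mm10, not from pooled reads. Which aligner and callers were used is not given in the sources used here. Deposited per library were 2 peak lists from the authors, with the height as a signal of unstated unit, footprints with a constant of 0.01 in place of a p-value, and cut-rate intervals with a false discovery rate, a q-value, all under 0.05. The longer list was used. Cut totals are not stated, so counting error was not modelled.

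Peaks were placed by midpoint against GENCODE M21, in the order promoter, coding exon, other exon, intron and intergenic. A host exon was that of the best-ranked transcript of its gene. Sequence was read from GRCm38.p6. RefSeq starts came from the annotation of that assembly. A peak was found in the other animal at 1 bp of overlap, and pairs were made 1 to 1 by largest overlap. A footprint belonged to a peak that held its midpoint. Class differences were tested by the exact two-sided sign-flip permutation test over animals. Python 3.11.15, NumPy 2.4.6, pandas 2.3.3, SciPy 1.17.1 and matplotlib 3.10.9 were used, and the steps were tested on simulated data.

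Members and lists were chosen with earlier results of these data known. Named were the 12 highest members, the 6 genes with most members, the 3 highest per exon class and per gene list, the 4 largest ratios in each direction, the 3 nearest to the 1 kb limit on each side, the 5 with most footprints and the 5 highest with the CTCF consensus. Other names are marked as chosen after their values were seen.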

Additional observations from a re-analysis of the deposited data

How the results depend on the processing

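Counts of members moved by over 1.5 times with stricter lists. With the shorter deposited list there were 779.5 members on average, 585.5 found in the other animal, 422 in internal coding exons and 671.5 with a footprint. With the higher 50% of the peaks these were 492, 424.5, 257.5 and 460.5. With that filter 3 differences from intron peaks also changed sign, that of log2 height to 0.014, that of the share found in the other animal to 1.91 percentage points and that of the CTCF consensus to 0.974 points; the cause was not tested. That difference in the share found was -25.3 points without animal 1 and 2.67 without animal 2, so its sign rests on which animal is kept. The median log2 ratio between animals was -0.38 with the shorter list, at least 50% of bases in coding sequence or the higher 50% of peaks, and -0.37 with over 500 bp, every annotated start, 50% reciprocal overlap or RefSeq starts added. In the mean of both animals, results under the other alternatives kept their direction, but in single animals some did not. Height against introns turned to 0.009 in animal 2 with peaks found in both animals (mean -0.087) and was 0 in animal 1 with the shorter list (mean -0.088). The CTCF difference turned to 0.0058 and 0.013 points in animal 1 with the shorter list and with RefSeq starts, and the share found to -1.21 points in animal 1 with 50% reciprocal overlap. The footprint difference shrank to -3.82 points with the higher 50% of the peaks and to -5.58 with peaks found in both animals. The alternatives covered distances of 2 kb and 500 bp, all annotated starts, coding intervals with a CCDS tag, footprints wholly inside a peak, whole peaks in place of 150 bp windows, the mean of log2(height + 0.1) and, chosen after seeing the data, RefSeq starts and peaks found in both animals only. Classes were compared within each animal, and with 1 group there are no groups to pair. With 2 animals and no cut totals, neither the spread between mice nor the counting error can be estimated well.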
